A study of Mus musculus with 9 samples.

Results

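Gene expression was compared between bone marrow progenitors with a mutation in exon 12 of Jak2 (E12) and wild-type progenitors (WT). The comparison took 3 E12 libraries, numbered 1, 2 and 5, and 3 WT libraries, numbered 50, 51 and 52, by the genotype in the labels, which is 6 of the 9 libraries of the series. The other 3 carry the V617F mutation of Jak2 (VF) and are used for the shared estimate of spread and beside some E12 values, mostly at the end. All cells came from bone marrow of mice on the C57BL/6N background and were isolated by flow cytometry under the label MEP, which stands for megakaryocyte-erythroid progenitors. The E12 mice are labelled SclCre;Exon12 and the VF mice SclCre;V617F, where SclCre is a recombinase under control elements of Scl (Tal1), a gene active in blood stem and progenitor cells. Mutations were induced with tamoxifen, given by intraperitoneal injection on 5 days in a row, and all groups are labelled with a time after tamoxifen. That time is 6 weeks for E12 and 12 weeks for WT and VF. The label of the control mice is WT alone, and does not say whether they carried SclCre. The exact exon 12 change and the share of cells that carried it are not given in the labels. The design text says triplicates, but no label ties a library to a separate mouse, so the p-values here describe the spread between libraries, which may be technical.

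Jak2 is the tyrosine kinase that sits on several cytokine receptors, that for erythropoietin among them, and its activation leads to phosphorylation of STAT5 and to transcription of genes for growth and survival. Cish and the Socs proteins are made in response to STAT5 and dampen the same signal. In patients, exon 12 mutations are found mostly in polycythemia vera with a high red cell mass, while V617F is found in polycythemia vera, essential thrombocythemia and myelofibrosis. MEP are sorted for the stem cell factor receptor Kit and for low CD34, low Sca-1 (Ly6a) and low Fc gamma receptors, and they give rise to red cells and to platelet-forming megakaryocytes.

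The libraries held 20328414 to 23499914 counts in E12 and 33838681 to 39736096 in WT. The WT libraries had fewer genes with reads despite the greater depth: 27.2% to 30.1% of the deposited genes had no count in a WT library, against 12.4% to 18.7% in an E12 library. The share of counts that fell on genes shorter than 1 kb was 27.9%, 14.1% and 11.2% in WT 50, 51 and 52, against 6.92% to 8.79% across E12. For genes longer than 5 kb the share was 14.2% to 16.3% in E12, against 4.37% to 7.92% in WT. WT 50 stood apart within its group, with 548 genes at least 4-fold above both other WT libraries at 10 CPM (each gene's counts relative to the library total, scaled between libraries) or more, and 485 genes at least 4-fold below them. E12 5 had 103 such genes above and 7 below the other E12 libraries. Its leading genes were the hemoglobin chains, with 3.37% of its counts against 0.104% and 0.0786% in E12 1 and E12 2, and it held 1140 CPM of Xist, the RNA of the inactive X chromosome, against 3.01 and 3.32. E12 5 had next to no RNA of Y-linked genes such as Ddx3y (0.695 CPM against 58.6 and 60), while the WT libraries held Y-linked RNA and at most 1.9 CPM of Xist. The library numbers in the WT labels lie in another range than those of E12 and VF, and the labels name no batch. Genotype, weeks after tamoxifen and any difference in how these sets of libraries were made cannot be told apart in any difference between E12 and WT.

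Of 13608 genes tested, 3251 were higher in E12 (23.9%) and 2466 were lower (18.1%) at an adjusted p under 0.05 in edgeR's quasi-likelihood test. Without regard to the test, all 3 E12 libraries lay above all 3 WT libraries for 4493 genes (33%) and below them for 2759 (20.3%). These shares are the background for every gene group that follows. The median difference over all tested genes was 0.355 (log2, E12 minus WT), and other scalings gave 0.168 and 0.198, so a group is read against that median and not against 0.

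The differences followed gene length. The median was -1.84 (log2) over 1229 genes under 1 kb, of which 56 were higher and 639 lower, and 1.11 over 2393 genes longer than 5 kb, of which 1038 were higher and 58 lower. A fit with a length offset, in which a smooth curve of each library's levels against the authors' gene lengths was taken out, brought these medians to 0.134 and 0.256 and the median of all genes to 0.214. It called 2430 genes higher (17.9%) and 1515 lower (11.1%). Of the first calls, 1983 of the higher genes and 1044 of the lower genes were called the same way with the offset, and 1735 and 797 were called the same way both with the offset and without E12 5. No higher gene turned lower, and 20 lower genes turned higher. For genes given with a difference of their own, the offset value stands beside it where it ends the call or differs from the value as counted by more than 1.5 times. Whether gene length itself, RNA quality or library preparation gave the trend was not tested.

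**Figure D1:**
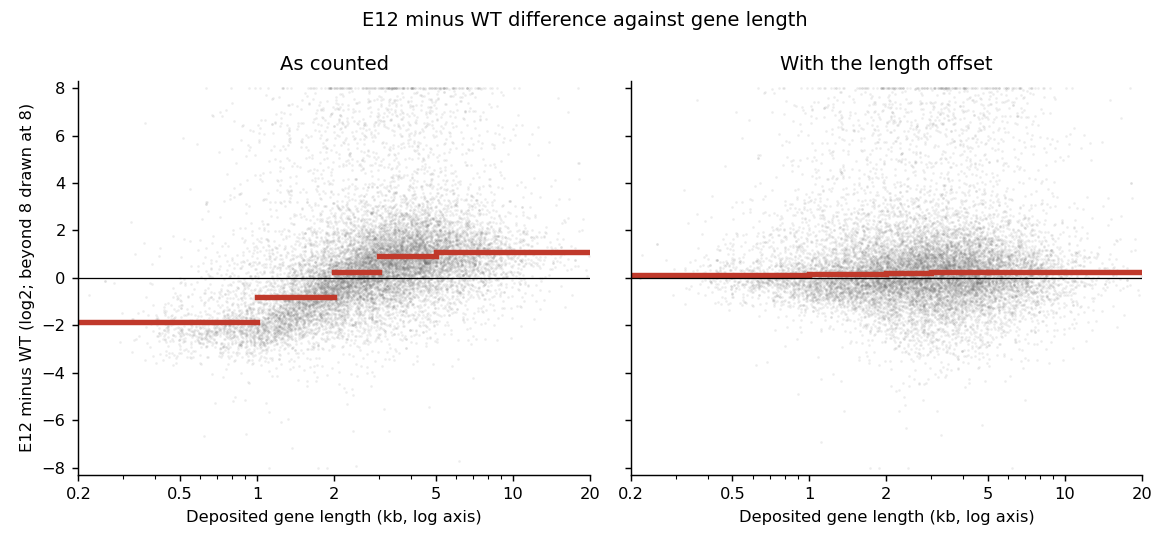
Each point is 1 of 13608 tested genes, with the authors' gene length in kb on a log axis and the difference E12 minus WT in log2 units, as counted at left and with the length offset at right. Red bars are medians of 5 length classes, which climb from -1.84 under 1 kb to 1.11 over 5 kb as counted and lie between 0.134 and 0.269 with the offset.

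Jak2 itself (chr19:29251803-29313095, GRCm38) was measured at 37.4, 41.9 and 37.2 CPM in E12 1, 2 and 5 and at 15.7, 17.6 and 38.6 CPM in WT 50, 51 and 52. E12 overlapped with WT 52, and the difference of 0.70 (log2, SE 0.33) did not pass the test (adjusted p = 0.12, edgeR). With the length offset it was -0.08. Gene counts do not show the mutation, so the level of Jak2 does not check the genotype labels.

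Among the antigens that define the sort, Cd34 and Ptprc (CD45) rose, and Kit rose as counted. Cd34 (chr1:194938821-194961292), the surface sialomucin of stem and early progenitor cells, stood at 226, 288 and 119 CPM in E12 and at 4.97, 2.77 and 3.16 CPM in WT. The groups lay far apart, with a difference of 5.87 (log2, SE 0.44, adjusted p = 0.00036, edgeR). Kit was at 305, 358 and 282 CPM in E12 and 60.8, 154 and 188 CPM in WT, so that it was present in all libraries. Its difference was 1.23 (adjusted p = 0.03), and this call was lost with the offset (0.44, adjusted p = 0.28) and without E12 5 (adjusted p = 0.06). A MEP gate keeps CD34 protein low on the cell surface, while these values are RNA, so they do not show surface CD34 on the E12 cells. Of the other antigens kept low, Ly6a was at most 4.08 CPM in E12 and 2.46 CPM in WT, and Fcgr3 was at most 8.34 and 22.7 CPM. Of 11 tested sort antigens 4 rose and 0 fell, the fourth being Cd4 at 0.234 CPM or less, which was lost with the offset and without E12 5. In these sorted pools, a larger share of cells of a type and more RNA of a gene per cell cannot be told apart.

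The genes with the largest differences were absent from the WT libraries. Of the tested genes, 727 had no count in any WT library and 19 had none in any E12 library, and 12 of the former reached a mean of 10 CPM in E12. Echdc2, an enoyl-CoA hydratase domain protein of mitochondria, was at 54.3, 78.1 and 52.1 CPM in E12 and at 0 in WT, at least 1645-fold higher against a floor of 3 counts over the WT group. C2cd4a was at 45.2, 25.1 and 51.5 CPM in E12 and 0 in WT, at least 1063-fold higher. The fibrinogen receptor chain Itgb3, the inhibitory receptor Sirpa, the angiopoietin receptor Tek and the glutamate receptor Gria3 completed the group with even E12 libraries, at least 509-fold, 448-fold, 413-fold and 343-fold higher. Most of these were also well expressed in VF, with means of 160 CPM for Echdc2, 137 for Itgb3, 25.7 for Sirpa, 55.9 for Tek and 35.3 for Gria3. C2cd4a had a VF mean of 0.224 CPM. All of them were called higher in VF than in WT too. Apol11b and Fcgr4 met the same rule by way of E12 5, which held 61 and 51.1 CPM of them against at most 1.6 CPM in E12 1 and E12 2.

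Lower by the largest factors were genes of mixed function, most of them highest in WT 50. Spon2, an extracellular matrix protein, was the most even of them, at 9.92, 11.5 and 5.99 CPM in E12 and 209, 298 and 260 CPM in WT, a difference of -4.80 (log2, SE 0.39, adjusted p = 0.0004, edgeR). Mylpf, a myosin light chain, was at 18.8, 13.1 and 16.1 CPM in E12 and 511, 87.3 and 95.5 CPM in WT. The lens filament gene Bfsp2, the proton pump subunit Atp4b, the ectonucleotidase Enpp3, Gml2, Ccdc68 and 5830418P13Rik fell, with differences of -5.94 to -3.90 (log2), and all 8 genes were also called without WT 50 and with the offset. Mylpf was at -3.85 as counted and -1.66 with the offset. At the highest levels, and called with and without the offset and without E12 5, Mpo, Eif4g2, Tfrc and the ribosomal RNA precursor Rn45s rose, and Ubb, Gm1821, Car2 and Pfn1 fell, with Pfn1 at -2.66 as counted and -0.57 under the offset. With the offset and without E12 5 together, the calls of Atp4b, Ccdc68 and Gml2 were lost (adjusted p = 0.054, 0.068 and 0.13, edgeR). In the same setting the calls of Rn45s, Ubb and Pfn1 were lost (adjusted p = 0.06, 0.051 and 0.13, edgeR). That of Car2 was lost with E12 and WT alone (adjusted p = 0.066, edgeR) and on the deposited levels (-0.64). Gm1821 is a ubiquitin pseudogene whose reads cannot be separated from those of Ubb, so the pair is 1 observation. The positions of 5830418P13Rik (chr9:103423578-103461260) and Bfsp2 (chr9:103424924-103480405) overlap. Their WT levels ran in parallel, at 131, 32.4 and 13.5 CPM and at 434, 95.3 and 45.2 CPM, so these genes may not be separate observations.

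Erythroid genes moved in both directions, as all tested genes did, and the clearest rise was in the transferrin receptor. Tfrc (chr16:32608896-32632794), which brings transferrin-bound iron into erythroid precursors, stood at 1206, 798 and 1621 CPM in E12 and at 145, 89.6 and 120 CPM in WT. All E12 libraries were several times above all WT libraries, with a difference of 3.36 (log2, SE 0.35, adjusted p = 0.00065, edgeR), of 2.52 with the length offset and of 3.09 without E12 5. Erfe, the erythroid hormone that lowers hepcidin so that more iron is released to plasma, was at 22.9, 16.7 and 28.3 CPM in E12 and 0.166, 1.68 and 2.65 CPM in WT, a rise of 3.90 (adjusted p = 0.0066). Ncoa4, which delivers ferritin for breakdown and so frees stored iron, rose by 2.56 (adjusted p = 0.0018). The ferritin light chain Ftl1 fell by 2.65 (adjusted p = 0.0085). With the length offset this difference was -0.67, and it was still called. Over the 18 iron genes 6 rose (33.33%) and 4 fell (22.22%) as counted, against 23.9% and 18.1% of all genes. With the offset 5 rose and 3 fell.

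Erythroid transcription factors differed among themselves. Tal1 (Scl), the factor whose control elements drive the recombinase, was at 160, 149 and 169 CPM in E12 and 56, 53.2 and 46 CPM in WT and rose by 1.62 (SE 0.20, adjusted p = 0.0011, edgeR), by 0.82 with the offset. Its partner Lmo2 rose by 0.92 (adjusted p = 0.022), and Zfpm1 (Fog1), the cofactor of Gata1, rose by 2.04 (adjusted p = 0.0025). Klf1 (chr8:84901982-84905291), the erythroid Krüppel-like factor, was at 836, 630 and 680 CPM in E12 and 3414, 2236 and 1691 CPM in WT and fell by 1.77 (adjusted p = 0.0088). The difference was -0.77 with the length offset and no longer passed (adjusted p = 0.067). Gfi1b, a repressor needed in both MEP lineages, fell by 1.34 (adjusted p = 0.0068) and was also called with the offset (-0.79). Gata1 was at 487, 384 and 433 CPM in E12 and 421, 1025 and 836 CPM in WT. These ranges overlap, and the difference of -0.81 did not pass (adjusted p = 0.082), nor did that of -0.32 with the offset. Of 17 factors 5 rose (29.41%) and 3 fell (17.65%), near the shares of all genes (23.9% and 18.1%), with 4 and 3 under the offset.

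The surface and membrane skeleton of the red cell gave 8 higher (30.77%) and 5 lower (19.23%) genes of 26, near the shares of all genes (23.9% and 18.1%). Xk, which carries the Kx antigen and is linked to Kell, was at 83.3, 69.2 and 75.9 CPM in E12 and 18.7, 17 and 24.3 CPM in WT, a rise of 1.93 (SE 0.25, adjusted p = 0.0012, edgeR). Epb41 (protein 4.1), which ties spectrin to the membrane, rose by 1.53 (adjusted p = 0.0024), and both were called with the offset (1.12 and 0.68) and without E12 5. Carbonic anhydrase 2, Car2 (chr3:14886269-14900770), was among the most abundant RNAs, at 6207, 4575 and 5176 CPM in E12 and 16920, 15740 and 12740 CPM in WT, and fell by 1.51 (adjusted p = 0.0086), with -0.92 under the offset. The Rhesus protein gene Rhd fell by 3.16 (adjusted p = 0.0051, offset -2.10), from 4470, 1901 and 1718 CPM in WT to 351, 183 and 370 CPM in E12. The erythropoietin receptor Epor overlapped between groups, at 156, 107 and 160 CPM in E12 and 107, 192 and 193 CPM in WT (difference -0.22, adjusted p = 0.58, and 0.33 with the offset). The anion exchanger Slc4a1 was called higher only through E12 5, which held 431 CPM against 3.69 to 6.29 CPM in the other E12 libraries and 1.62 to 2.04 CPM in WT. Without E12 5, 4 members were higher and 5 lower, and with the length offset 4 were higher and 2 lower.

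Of 13 genes of heme synthesis 6 fell and 1 rose (median -0.789), and 4 of those that fell were also called lower with the length offset, where the median was -0.0072. Alad, which makes porphobilinogen, was at 419, 281 and 423 CPM in E12 and 3906, 1401 and 1194 CPM in WT and fell by 2.53 (SE 0.48, adjusted p = 0.0048, edgeR). Uros and Urod, which close and modify the porphyrin ring, fell by 1.41 (adjusted p = 0.0037) and fell by 2.43 (adjusted p = 0.0043), the latter with -1.30 under the offset. Alas2, the erythroid enzyme that starts the pathway, was at 4.68 and 5.11 CPM in E12 1 and E12 2 and at 186 CPM in E12 5, against 0.331, 20.5 and 1.19 CPM in WT, with no call (adjusted p = 0.16). Among the genes of heme export and breakdown, the heme exporter Flvcr1 rose by 2.81 (adjusted p = 0.0072). The heme oxygenase Hmox1 was at 1.83, 1.18 and 4.25 CPM in E12 and at 0 in WT, at least 62.4-fold higher. The biliverdin reductase Blvra fell by 2.47 (adjusted p = 0.0039), with -0.84 under the offset.

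The hemoglobin chains differed between libraries of a group more than between groups. Hba-a1 was at 339, 242 and 9034 CPM in E12 and 3136, 902 and 956 CPM in WT. Hbb-bs was at 75.2, 50.8 and 3590 CPM in E12 and 260, 72.9 and 68.8 CPM in WT. E12 5 was far above all WT libraries and E12 1 and E12 2 were within or below the range of WT, and none of the 6 chains was called (for Hba-a1 0.94, adjusted p = 0.55, and for Hbb-bs 3.21, adjusted p = 0.099, edgeR). At an unadjusted p under 0.05 edgeR gave 2 chains as higher, DESeq2 and limma-voom called 0, and the length offset called the 4 beta chains higher (for Hbb-bs 5.18) and the alpha chains not (for Hba-a1 2.65). A chain to which DESeq2 gave no adjusted p would count among its 0. Without E12 5 the differences turned negative: Hba-a1 was -2.52 (adjusted p = 0.028) and Hbb-bs -1.09 (adjusted p = 0.2). The 2 alpha genes and the beta genes share nearly all their reads, so the 6 chains are 3 observations.

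**Figure D2:**
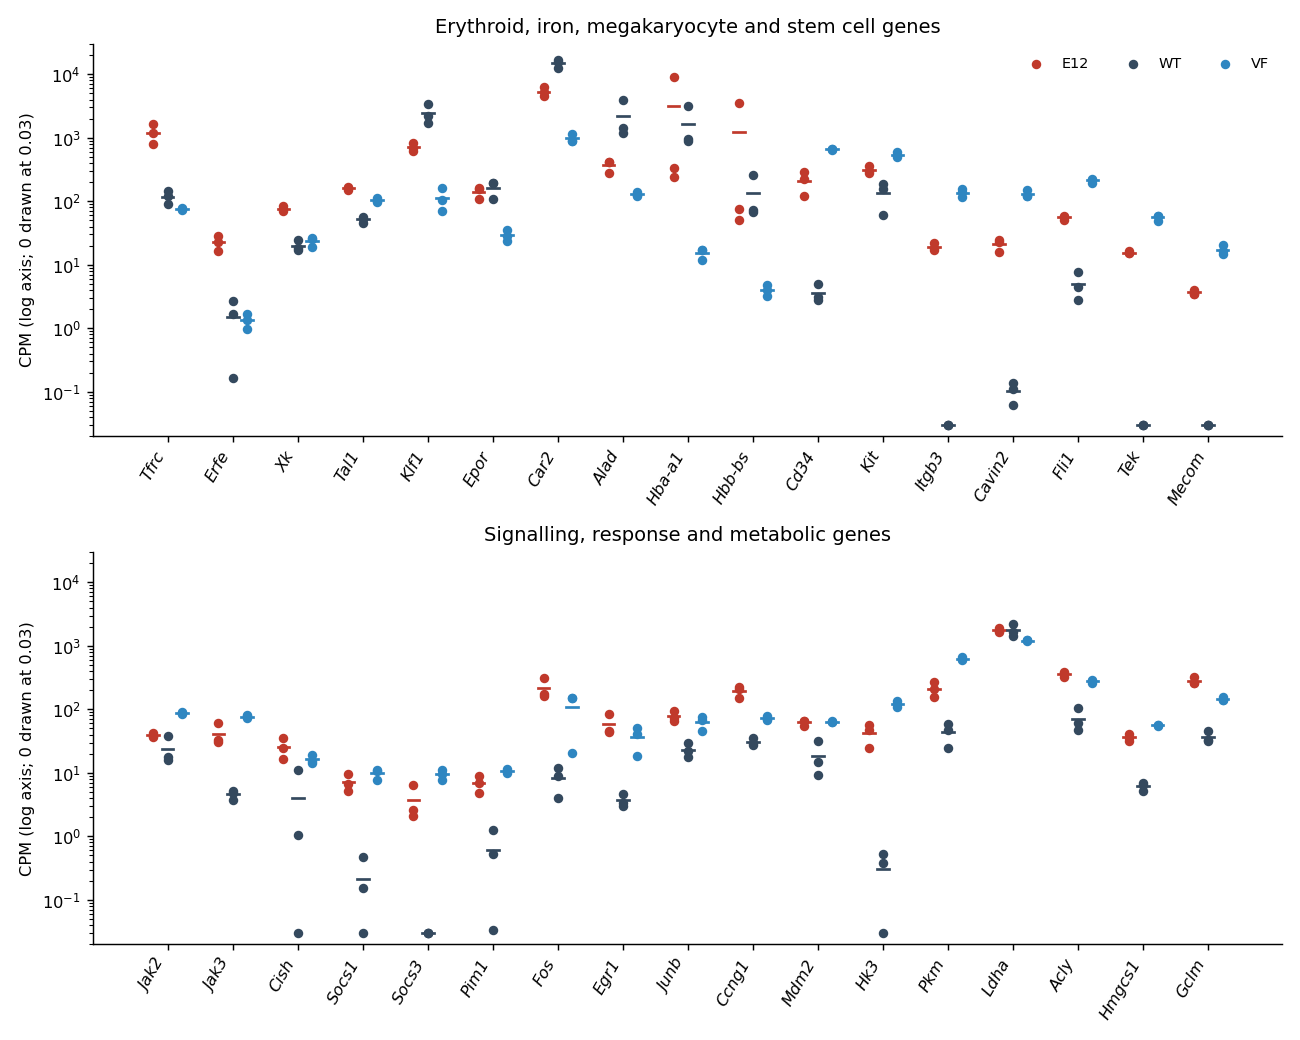
Points are single libraries and short lines are group means, in CPM on a log axis with 0 drawn at 0.03, for erythroid, iron, megakaryocyte and stem cell genes above and for signalling, response and metabolic genes below. The 3 E12 values of Tfrc and of Cd34 lie above all WT values, while E12 5 alone carries the high hemoglobin values and the Jak2 values overlap.

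Many megakaryocyte and platelet genes rose. Of 28 tested, 15 were higher and 1 lower, with a median of 2.20 (log2) against 0.355 over all genes, and with the length offset 15 were higher and 0 lower (median 2.55). Itgb3 (chr11:104608000-104670476), which with Itga2b forms the platelet fibrinogen receptor, was at 21.8, 17.3 and 18.5 CPM in E12 and had no WT count (adjusted p = 0.00018, edgeR). Cavin2, a coat protein of caveolae that is abundant in platelets, was at 24.5, 15.7 and 22.6 CPM in E12 and 0.11, 0.0623 and 0.136 CPM in WT, and rose by 7.63 (adjusted p = 8.8e-05). The transcription factor Fli1 rose by 3.48 (adjusted p = 0.00068), from 4.42, 2.74 and 7.79 CPM in WT to 56.6, 59 and 51.2 CPM in E12. Genes of the mature platelet did not all follow. Vwf was at 31.6, 17.4 and 27.1 CPM in E12 and 24.3, 9.69 and 18.3 CPM in WT and was not called (adjusted p = 0.24), and the chemokine Pf4, at 99.8, 48 and 90.4 CPM in E12 and 130, 21.2 and 16.1 CPM in WT, was called with the offset and without WT 50 but not as counted. Without WT 50, 18 members were higher and 0 lower.

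Genes of stem and multipotent progenitors rose likewise, with 14 higher and 0 lower of 21 (median 3.02) and 13 higher and 2 lower with the offset (median 2.41). Beside Cd34, the angiopoietin receptor Tek was at 15.1, 16.2 and 15.3 CPM in E12 with no WT count, and Mecom (Evi1), a factor needed by stem cells, was at 3.98, 3.5 and 3.52 CPM in E12 with no WT count, at least 97.5-fold higher. Meis1, the partner of Hox proteins in stem and megakaryocyte progenitors, rose by 2.97 (adjusted p = 0.00082, edgeR) from 4.58, 9.94 and 10.1 CPM to 65.3, 75.3 and 52.8 CPM. Gata2, which precedes Gata1 in the erythroid path, rose by 2.62 (adjusted p = 0.002), and its E12 values of 152, 270 and 92.7 CPM spread the most among these. The cytokine receptor Flt3 rose by 4.22, and that call was lost with the offset (3.35, adjusted p = 0.053). The summed CPM of the list was 692 to 1173 in E12 and 198 to 414 in WT, and that of the megakaryocyte list 828 to 932 and 207 to 544, so the groups did not overlap in either sum.

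Markers of other bone marrow cells moved with the groups in part and with single libraries in part. Of 20 neutrophil genes 3 rose and 4 fell (median -0.561), and 6 rose and 0 fell with the offset. Mpo, a granule peroxidase of myeloid cells, was at 1736, 1695 and 909 CPM in E12 and 74.4, 226 and 86.9 CPM in WT, a rise of 3.48 (SE 0.55, adjusted p = 0.0026, edgeR). Spi1 (PU.1), the myeloid master regulator that opposes Gata1, was at 52.1, 56.8 and 41.9 CPM in E12 and 0.994, 5.08 and 6.9 CPM in WT and rose by 3.52 (adjusted p = 0.0028). Gfi1 was at 0.695 to 3.54 CPM in E12 and without a WT count, and Csf3r, the receptor for granulocyte colony-stimulating factor, rose by 1.94 (adjusted p = 0.0054), by 1.19 with the offset. The calprotectin gene S100a8, made late in the neutrophil path, fell by 3.28 (adjusted p = 0.047) with overlapping groups, from 2986, 532 and 97.5 CPM in WT to 57.6, 42.8 and 273 CPM in E12, and this call was lost with the offset (-0.71) and without WT 50. Of 22 monocyte and macrophage genes, Spi1 among them, 7 rose and 0 fell, and 6 rose and 0 fell with the offset.

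Lymphoid markers were spread by library. The summed CPM of 11 tested B cell genes was 4763, 1065 and 458 in WT 50, 51 and 52 and 74.1, 34.4 and 812 in E12 1, 2 and 5, so WT 50 held most and E12 5 lay within the WT range. Vpreb1, the surrogate light chain of pre-B cells, was at 1289, 237 and 91.8 CPM in WT and 9.8, 3.92 and 116 CPM in E12 and was not called (adjusted p = 0.057, edgeR), and none of the B cell genes was called by edgeR. At an unadjusted p under 0.05 it gave 1 as higher and 4 as lower, DESeq2 and limma-voom each called 1 higher and 5 lower, and edgeR without E12 5 called 7 lower. Of 11 T and NK cell genes 1 was called, and of 10 mast cell, basophil and eosinophil genes 2 rose and 1 fell. The high-affinity IgE receptor chain Fcer1a was at 7.61, 13.6 and 3.34 CPM in E12 and had 1 count in all WT libraries, a ratio of 670 with a 95% counting interval of 120 to 26500. Another chain of this receptor, Ms4a2, rose by 4.75 (adjusted p = 0.021, edgeR). This call was lost without E12 2 (adjusted p = 0.077, edgeR) and with E12 and WT alone (adjusted p = 0.075, edgeR). Of 4 stromal and endothelial genes Pecam1, also a platelet and progenitor protein, rose by 2.75 (adjusted p = 0.0012). What part these cells had in the other differences was not tested.

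**Figure D3:**
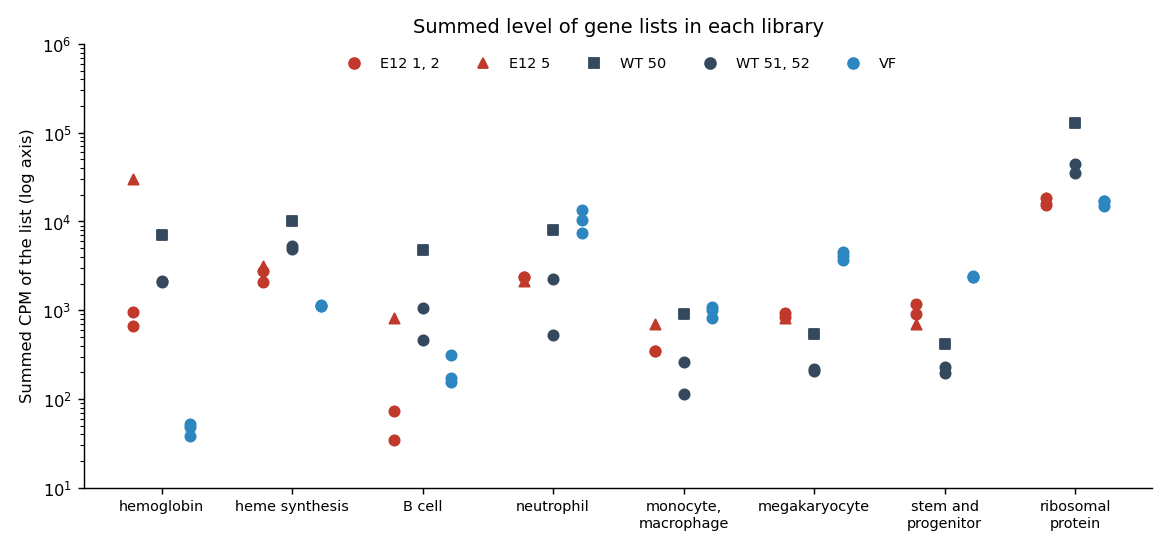
Summed CPM of 8 gene lists on a log axis, with 1 point per library and with E12 5 (triangle) and WT 50 (square) marked. Megakaryocyte and stem cell sums of E12 lie above all WT sums, hemoglobin is highest in E12 5 at 29750, and B cell genes are highest in WT 50 at 4763.

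Of 28 JAK-STAT chain genes, which are receptors, kinases, STATs and regulators, 14 rose and 0 fell (median 1.08), and with the offset 7 rose and 1 fell (median 0.417). The median gene length of the list was 4457 bases. Jak3, the kinase of the common gamma chain receptors, was at 33.3, 60.2 and 30.8 CPM in E12 and 3.7, 4.83 and 5.27 CPM in WT and rose by 3.17 (SE 0.32, adjusted p = 0.00062, edgeR). Stat6, which acts downstream of interleukin 4, rose by 2.20 (adjusted p = 0.0012) and Jak1 by 1.29 (adjusted p = 0.0031), and these held with the offset at 1.45 and 0.46. Stat5a and Stat5b, the STATs used by the erythropoietin receptor, rose by 0.96 (adjusted p = 0.012) and 1.36 (adjusted p = 0.0051), but not with the offset (0.25, adjusted p = 0.26, and 0.54, adjusted p = 0.065). Per kb of gene length, the E12 means were 49.8 CPM for Jak1, 11.7 CPM for Tyk2, 10.2 CPM for Jak3 and 7.69 CPM for Jak2, the lowest of the 4 being Jak2.

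Of 15 STAT5 targets and feedback genes 4 rose (26.67%) and 0 fell (median 1.5), against 23.9% and 18.1% of all genes. The share that rose was thus near that of all genes. With the offset 6 rose and 1 fell. Socs1, which binds the kinase domain of Jak2, was at 6.75, 5.18 and 9.51 CPM in E12 and 0, 0.156 and 0.476 CPM in WT and rose by 4.99 (SE 0.92, adjusted p = 0.0044, edgeR). Socs3 was at 2.07, 6.55 and 2.6 CPM in E12 with no WT count, at least 101-fold higher. The survival kinases Pim1 and Pim3 rose by 3.53 (adjusted p = 0.014) and 2.15 (adjusted p = 0.0054). Cish, the classical STAT5 target of the erythropoietin receptor, was at 24.9, 16.4 and 35.3 CPM in E12 and 1.05, 11 and 0 CPM in WT. All its E12 values were above the WT values, yet the WT libraries differed so much that the difference of 2.66 (SE 1.32) did not pass (adjusted p = 0.13). Socs2 was at 6.32, 6.36 and 12.8 CPM in E12 and 3.64, 7.19 and 2.48 CPM in WT and was not called (adjusted p = 0.13). The antiapoptotic Bcl2l1, at 24.7, 23.3 and 47.5 CPM in E12 and 0.11, 7.01 and 12.6 CPM in WT, was not called either (adjusted p = 0.088).

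The start sites of the feedback genes were searched for the STAT site TTCNNNGAA, which reads the same way on both strands, in windows from 250 bases before to 50 bases after each start. Of 13 windows for 9 of the STAT5 list's genes, 2 held it (15.4%), against 8.3% of 32851 windows of all genes. Both belonged to feedback inhibitors, and their sequences are shown with the site in capitals (RefSeq, GRCm38.p6, strand of the gene). The Cish stretch, chr9:107296654-107296683 on the plus strand, holds the site at bases 1 and 12 from the start, and the Socs3 stretch, chr11:117969467-117969566 on the minus strand, holds it at base -154.
Cish: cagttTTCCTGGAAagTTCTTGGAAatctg
Socs3: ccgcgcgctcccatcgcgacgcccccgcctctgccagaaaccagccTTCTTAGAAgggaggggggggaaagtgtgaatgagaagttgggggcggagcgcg
A match to these letters is a description and does not show that STAT5 was bound. The 2 genes with a match are Socs3, which had no WT count, and Cish, which was not called.

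Immediate early genes, which are transcribed within minutes of growth factor or stress signals, gave the highest share of higher calls of the 39 lists. Of 16 tested, 13 rose and 0 fell (median 2.83), with 11 and 0 under the offset and 9 and 0 without E12 5. Fos was at 162, 310 and 177 CPM in E12 and 3.98, 11.9 and 8.81 CPM in WT and rose by 4.71 (SE 0.78, adjusted p = 0.0031, edgeR). Egr1 was at 46.1, 83.1 and 44.7 CPM in E12 and 3.04, 3.36 and 4.62 CPM in WT, a rise of 3.98 (adjusted p = 0.00091), and Junb rose by 1.74 (adjusted p = 0.0033). E12 2 was the highest E12 library for all 3. These genes are also induced while tissue is dissociated and sorted, and the part of handling was not tested.

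Targets of p53 rose in large part, with 10 higher and 1 lower of 16 (median 2.18), and 9 and 1 with the offset. Ccng1, an atypical cyclin induced by p53, was at 229, 152 and 211 CPM in E12 and 35.9, 29.7 and 27.2 CPM in WT and rose by 2.67 (SE 0.25, adjusted p = 0.00053, edgeR). Mdm2, the ligase that degrades p53, was at 66.1, 55.4 and 65.4 CPM in E12 and 14.9, 9.34 and 31.4 CPM in WT and rose by 1.75 (adjusted p = 0.0089). Trp53inp1 rose by 4.33 (adjusted p = 0.0022), and the apoptosis effector Perp was at 1.04 to 5.94 CPM in E12 with no WT count. The cell cycle inhibitor Cdkn1a (p21), often taken as the main readout of p53, overlapped at 49.9, 32.6 and 36.2 CPM in E12 and 94, 23.4 and 7.51 CPM in WT (adjusted p = 0.95). Bax, which opens the mitochondrial outer membrane, was the member that fell by the test, with a difference of -1.95 (adjusted p = 0.013). This call was lost with the offset, where the difference was 0.01, and without E12 5 (adjusted p = 0.051).

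Stress responses other than p53 were mixed. In the amino acid response, which follows from the factor Atf4, 8 of 16 rose and 2 fell, and 7 and 3 with the offset. The leucine sensor Sesn2 was at 23.1, 19.3 and 22.4 CPM in E12 and 1.38, 2.9 and 1.33 CPM in WT and rose by 3.52 (SE 0.42, adjusted p = 0.00099, edgeR). The lipoprotein receptor Vldlr and the pseudokinase Trib3 had no WT count and were at 5.34 to 14.7 CPM and 1.8 to 23.3 CPM in E12. The asparagine synthetase Asns was not called, with 454, 361 and 404 CPM in E12 and 160, 1046 and 1040 CPM in WT. Of 15 hypoxia genes 6 rose and 3 fell, 3 and 2 with the offset. Hif1a, the oxygen-regulated factor, was at 75, 74.4 and 100 CPM in E12 and 6.24, 13.4 and 18.1 CPM in WT and rose by 2.72 (adjusted p = 0.0016), its hydroxylase Egln3 rose by 6.46 (adjusted p = 0.0014), and the mitochondrial protein Higd1a fell by 2.57 (adjusted p = 0.0093). Of 20 interferon genes 2 rose, Ifit2 by 2.88 (adjusted p = 0.0035) and Gbp3 by 1.70 (adjusted p = 0.0064), and 3 fell. Among the latter Ifi27 fell by 2.71 (adjusted p = 0.0083), with -0.80 under the offset. Of 17 genes of folding in the endoplasmic reticulum 1 rose, the chaperone Hyou1, and 1 fell, Manf, and both calls were lost with the offset.

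The series is titled for metabolic changes in Jak2-mutant cells, so enzymes were read by pathway. In glycolysis 5 of 25 genes rose (20%) and 4 fell (16%), near the shares of all genes (23.9% and 18.1%). With the offset 6 rose and 1 fell. Hk3, a hexokinase of myeloid cells, was at 48, 55.8 and 24.7 CPM in E12 and 0, 0.529 and 0.374 CPM in WT and rose by 7.01 (SE 0.73, adjusted p = 0.00066, edgeR). The pyruvate kinase Pkm was at 207, 269 and 154 CPM in E12 and 24.6, 58.3 and 47.4 CPM in WT and rose by 2.27 (adjusted p = 0.0027). Hk1 rose by 1.46 (adjusted p = 0.009), by 0.72 with the offset. The lactate dehydrogenase Ldha, much higher than these at 1887, 1660 and 1738 CPM in E12 and 1429, 2170 and 1666 CPM in WT, was not called as counted (0.01, SE 0.27, adjusted p = 0.99) and was called higher with the offset (0.43, adjusted p = 0.024). Hk2 was at 19.5, 26.4 and 14.1 CPM in E12 and 14.4, 7.41 and 4.32 CPM in WT (1.2, adjusted p = 0.054, and 0.28 with the offset). Eno3, the muscle enolase, fell by 1.5 (adjusted p = 0.0035), and Pfkfb3, which makes the activator of phosphofructokinase, rose by 3.48 (adjusted p = 0.019), both calls being lost with the offset (-0.67, adjusted p = 0.066, and 2.69, adjusted p = 0.055).

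Of 12 carriers for sugar, pyruvate and lactate 5 rose and 3 fell. Slc16a10, an aromatic amino acid transporter of the monocarboxylate family that was placed in this list by its family, was at 133, 112 and 141 CPM in E12 and 17.5, 25.5 and 29 CPM in WT and rose by 2.42 (SE 0.25, adjusted p = 0.00064, edgeR), by 1.59 with the offset. The glucose transporter Slc2a3 rose by 1.75 (adjusted p = 0.0024) and the lactate exporter Slc16a3 by 1.77 (adjusted p = 0.01), and both were called with the offset (0.99 and 1.49). Slc2a1, the main glucose transporter, was at 13.7, 15.6 and 9.64 CPM in E12 and 0.0552, 3.67 and 3.03 CPM in WT and rose by 2.51 (adjusted p = 0.044), a call lost without E12 5 (adjusted p = 0.072). In the pentose phosphate pathway 3 of 11 rose (27.27%) and 1 fell (9.091%), against 23.9% and 18.1% of all genes. Rpia rose by 0.81 (adjusted p = 0.025, offset 1.40) and Prps2 by 1.02 (adjusted p = 0.0052), and transaldolase, Taldo1, fell by 1.57 (adjusted p = 0.0062). The calls for Prps2 and Taldo1 were lost with the offset (0.30, adjusted p = 0.33, and -0.20, adjusted p = 0.32), and that of Rpia without E12 5 (adjusted p = 0.075).

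Mitochondrial genes were lower. Of 36 subunits of complex I 35 fell and 0 rose (median -2.49), and of 34 subunits of complexes III to V 32 fell and 0 rose (median -2.31). Their median gene lengths were 744.5 and 708 bases, in the range where most genes were lower, and the offset left 18 of complex I lower (median -0.494) and 9 of complexes III to V lower with 1 higher (median -0.295). Ndufa9, a subunit of complex I, was at 284, 234 and 244 CPM in E12 and 1899, 764 and 665 CPM in WT and fell by 2.13 (SE 0.41, adjusted p = 0.0053, edgeR), and the difference with the offset was -0.73. Uqcrc1 of complex III was at 1544, 1049 and 1035 CPM in E12 and 7955, 4561 and 4035 CPM in WT and fell by 2.19 (-1.39 with the offset). Atp5o of the ATP synthase fell by 3.10 (-1.0 with the offset). In the pyruvate dehydrogenase complex and tricarboxylic acid cycle 10 of 28 fell and 2 rose, and 8 fell and 0 rose with the offset. Pdhb of the dehydrogenase complex fell by 1.69 (adjusted p = 0.0023), the malate dehydrogenase Mdh2 fell by 2.68 (adjusted p = 0.0045) and Sdhb fell by 2.85 (adjusted p = 0.005). With the offset the 3 differences were -0.66, -1.19 and -1.04 and passed there too. Of 21 fatty acid oxidation genes 9 fell and 0 rose (6 and 0 with the offset), with the electron carrier Etfa at 179, 154 and 132 CPM in E12 and 1247, 631 and 567 CPM in WT.

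Lipid synthesis had members that rose with and without the length offset. Acly, which makes cytosolic acetyl-CoA from citrate, was at 384, 368 and 325 CPM in E12 and 47.6, 60.1 and 103 CPM in WT and rose by 2.35 (SE 0.32, adjusted p = 0.0015, edgeR), by 1.61 with the offset and by 2.42 without E12 5. Acsl4 rose by 1.70 (adjusted p = 0.002) and the regulator Srebf1 by 1.35 (adjusted p = 0.0022), by 0.88 and 0.58 with the offset, and in all 5 of 14 fatty acid synthesis genes rose and 1 fell. In the cholesterol list 5 of 24 rose (20.83%) and 4 fell (16.67%), near the shares of all genes (23.9% and 18.1%). Among the risers were the early enzyme Hmgcs1, at 35.1, 41.3 and 32 CPM in E12 and 6.35, 5.14 and 6.94 CPM in WT (2.56, adjusted p = 0.00053), and the regulators Srebf2 and Insig1, and all 3 were called with the offset and without E12 5. The 4 that fell, Pmvk, Fdps, Tm7sf2 and Ebp, are enzymes of later steps, and 2 of them, Pmvk and Tm7sf2, were lost with the offset.

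Genes of folate-linked carbon transfer and of nucleotide synthesis were divided, the former with 2 of 14 higher and 3 lower. Thymidylate synthase, Tyms, fell by 2.58 (SE 0.50, adjusted p = 0.0052, edgeR), from 1990, 597 and 552 CPM in WT to 189, 152 and 182 CPM in E12, and by 3.43 with the offset. The mitochondrial folate enzyme Mthfd2 was at 159, 129 and 154 CPM in E12 and 58.1, 88.1 and 85.4 CPM in WT and rose by 0.93 (adjusted p = 0.011). In nucleotide synthesis 3 of 21 rose and 5 fell. Impdh1 of the guanine branch rose by 1.81 (adjusted p = 0.00088), and Dhodh of the pyrimidine branch and the thymidine kinase Tk1 fell by 1.18 (adjusted p = 0.0039) and fell by 2.47 (adjusted p = 0.0039), and all 3 were called with the offset, Tk1 at -1.13. In the glutathione and antioxidant list 15 of 22 fell and 3 rose, and 4 fell and 3 rose with the offset. The 3 risers were Gclm, Txnrd1 and Gsr. Gclm, the regulatory subunit of the enzyme that starts glutathione synthesis, was at 325, 256 and 256 CPM in E12 and 44.9, 32.9 and 31.6 CPM in WT and rose by 2.94 (adjusted p = 0.00044), and Txnrd1 and Gsr, which keep thioredoxin and glutathione reduced, rose by 2.39 (adjusted p = 0.00065) and 2.74 (adjusted p = 0.0014).

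**Figure D4:**
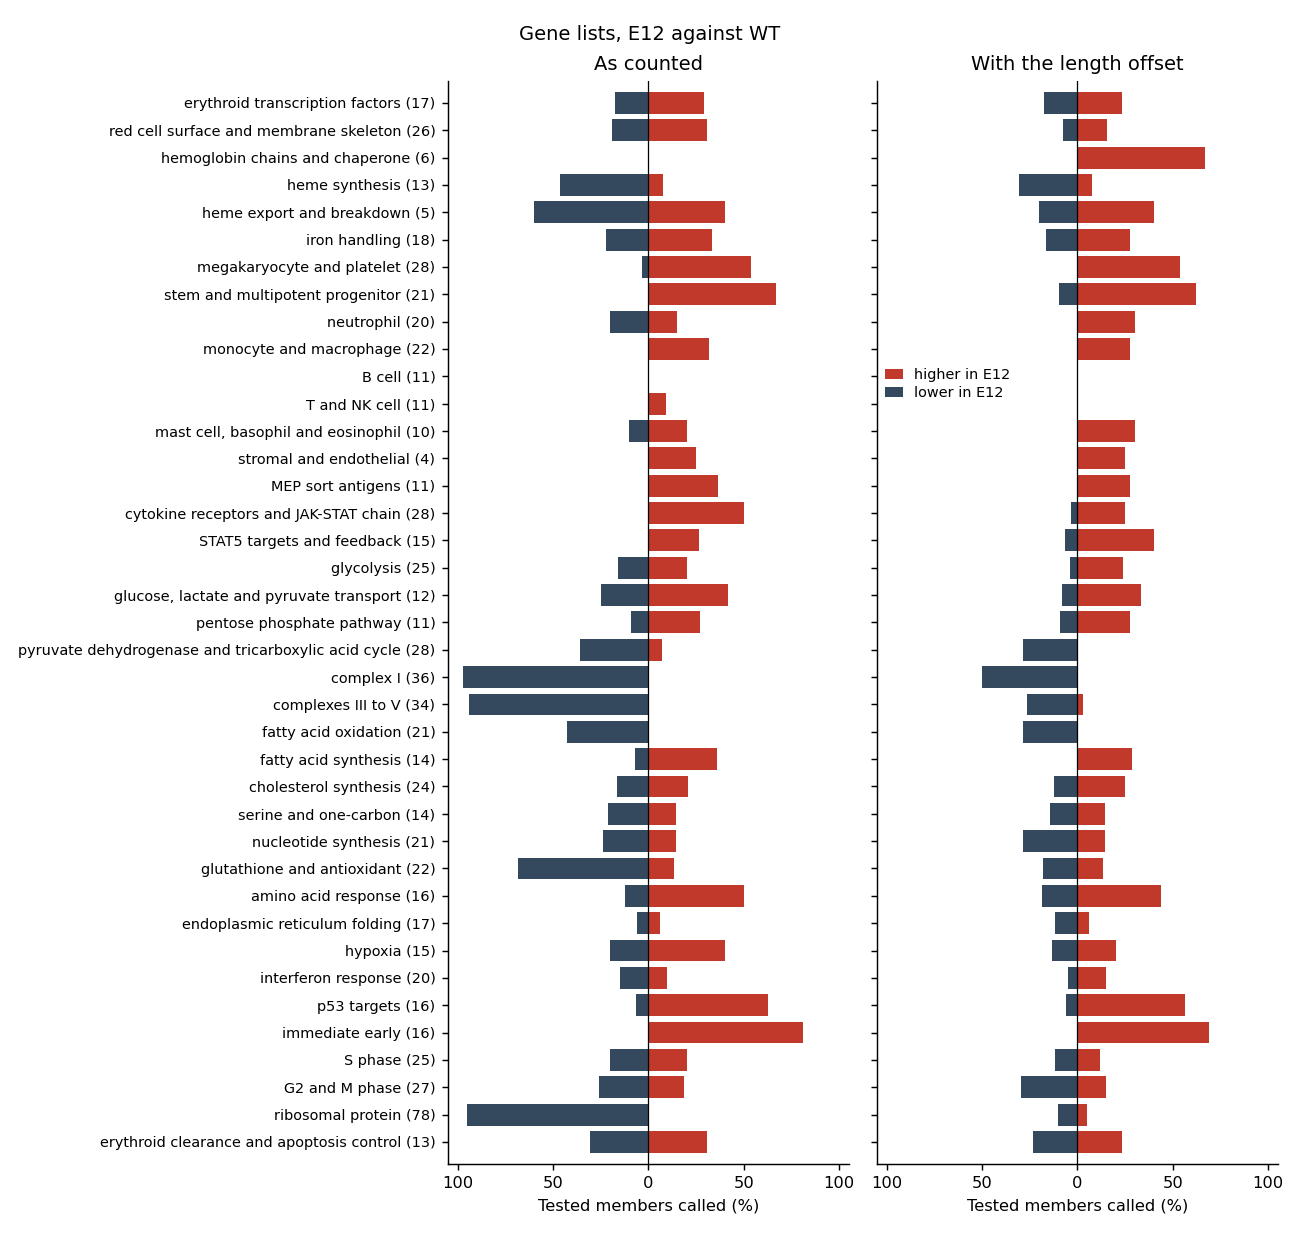
Bars are the percentage of tested members (number in brackets) called higher to the right and lower to the left in E12 against WT, as counted and with the length offset. Complex I, complexes III to V and ribosomal proteins have fewer lower calls with the offset (18 of 35, 9 of 32 and 8 of 74 members called lower remained so). Of the members called higher, 12 of 15 megakaryocyte, 12 of 14 stem cell, 9 of 10 p53 and 11 of 13 immediate early genes remained so.

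Cell cycle and ribosomal genes gave no common direction once length was allowed for. Of 25 S phase genes 5 rose and 5 fell (3 and 3 with the offset), and of 27 genes of G2 and M phase 5 rose and 7 fell (4 and 8). Dtl, which directs the degradation of licensing factors in S phase, rose by 1.88 (SE 0.27, adjusted p = 0.0019, edgeR) and the clamp loader subunit Rfc2 fell by 1.76 (adjusted p = 0.0029), with 1.10 and -0.76 under the offset. The spindle checkpoint kinase Bub1 rose by 1.59 (adjusted p = 0.0011), and Cdca8 of the chromosomal passenger complex fell by 1.46 (adjusted p = 0.0029), with 0.80 and -0.64 under the offset. Cyclin E1, Ccne1, was at 301, 240 and 282 CPM in E12 and 54, 65.2 and 163 CPM in WT and rose by 1.54 (adjusted p = 0.015). Of 78 ribosomal protein genes 74 fell and 0 rose as counted (median -1.94), and 8 fell and 4 rose with the offset (median -0.0825). Their median length was 717.5 bases. Of 13 genes of mitochondrial clearance and apoptosis control in erythroid cells 4 rose and 4 fell. Bcl2, the survival factor, was at 39.7, 62.5 and 35.3 CPM in E12 and 3.04, 9.5 and 6.32 CPM in WT and rose by 2.86 (adjusted p = 0.0019). The autophagosome protein Map1lc3b fell by 1.72 (adjusted p = 0.0019, offset -1.01) and the mitophagy receptor Bnip3l fell by 1.44 (adjusted p = 0.016).

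The VF libraries, from mice with the other Jak2 mutation, were set beside E12 through the direct contrast E12 minus VF, since both comparisons with WT rest on the same WT libraries. In that contrast 298 genes were higher in E12 (2.19%) and 139 lower (1.02%), and E12 and VF also differ in weeks after tamoxifen. Red cell genes were higher in E12 than in VF: 19 of 26 genes of the surface and membrane skeleton and 0 lower (median 3.56, against -0.0463 over all genes). Epor was at 23.6, 34.9 and 28.5 CPM in VF and 107 to 160 CPM in E12, a difference of 2.28 (SE 0.32, adjusted p = 0.011, edgeR). Klf1 was at 70.8, 163 and 104 CPM in VF (2.67, adjusted p = 0.015), Car2 at 890, 1156 and 886 CPM (2.44, adjusted p = 0.012) and Tfrc at 74.5, 77.6 and 73.8 CPM (4.0, adjusted p = 0.0018). So for Klf1 and Car2 E12 lay between VF and WT, and for Tfrc above both. All 6 hemoglobin chains were higher in E12 than in VF in edgeR (2 in limma-voom, 0 in DESeq2), with Hba-a1 at 11.7 to 17.4 CPM in VF and 242 CPM or more in E12. The 0 of DESeq2 can include chains to which it gave no adjusted p.

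Of the megakaryocyte genes 8 of 28 were lower in E12 than in VF and 0 higher (median -2.37), and of the stem cell genes 7 of 21 were lower and 1 higher. Itgb3 was at 158, 116 and 139 CPM in VF, with a difference of -2.84 (SE 0.25, adjusted p = 0.0046, edgeR), Cavin2 at 149, 121 and 122 CPM (-2.64, adjusted p = 0.0035) and Cd34 at 675, 671 and 633 CPM (-1.64, adjusted p = 0.046). Among genes called against both WT and VF, Clu, Ppbp, Slc35d3 and Casp12 were lower in E12 than in VF, with differences of -3.71 to -3.00, and C2cd4a, Fam124a, Sfrp4 and Cda were higher by 6.91 to 7.49. Fam124a was at 17.8, 12.8 and 19.3 CPM in E12 and at most 0.607 CPM in any WT or VF library. Jak2 was at 86.8, 92.5 and 83.1 CPM in VF, above all E12 libraries. The difference E12 minus VF of -1.17 did not pass as counted (adjusted p = 0.1, edgeR). With the length offset it was -1.16 and was called (adjusted p = 0.026, edgeR).

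**Figure D5:**
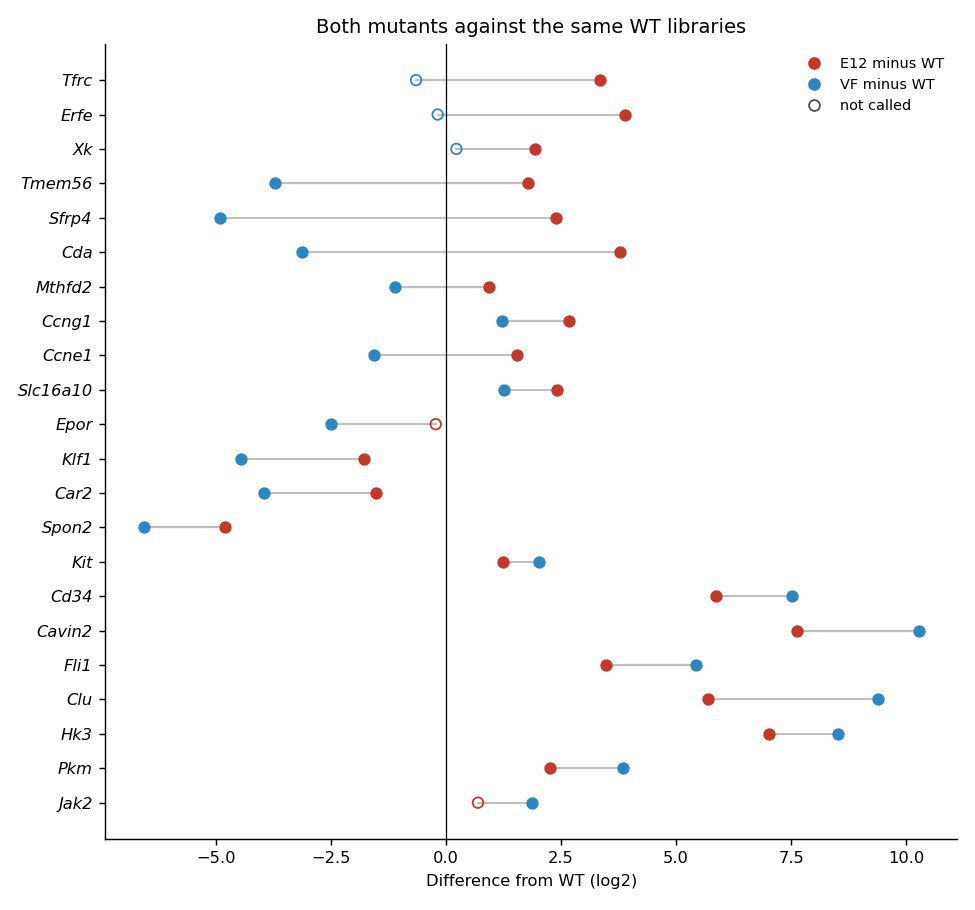
Difference from the same 3 WT libraries in log2 units for E12 (red) and VF (blue), filled where called and open where not called. E12 stands to the right of VF for Tfrc, Epor and Klf1 and to the left for Cd34, Cavin2 and Fli1.

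Against WT, 2685 genes were called higher in both mutants and 2106 lower in both, 19 were higher in E12 and lower in VF, and 0 were lower in E12 and higher in VF. These counts share the WT libraries, so they do not show a common response to the mutations. In the direct contrast of E12 with VF, 4 of 13 heme synthesis genes, 2 of 14 serine and folate genes, 2 of 22 glutathione genes and 1 of 25 glycolysis genes were higher and 1 glycolysis gene was lower. These shares lay above those of all genes (2.19% higher and 1.02% lower). The lists are small, and whether they differ from other genes was not tested. Of the mitochondrial lists, 0 of 36 subunits of complex I and 0 of 28 genes of the tricarboxylic acid cycle list were called by edgeR. At an unadjusted p under 0.05 edgeR gave 1 of complex I and 3 of the cycle list, DESeq2 called 0 and 3, and limma-voom 0 and 0. With the length offset, which called 1221 genes in this contrast, more enzymes were higher in E12 than in VF: Cyc1 by 0.90 (adjusted p = 0.011), Acaa2 by 0.81 (adjusted p = 0.021), Taldo1 by 0.60 (adjusted p = 0.034), Pdhb by 0.54 (adjusted p = 0.044) and Ldha by 0.52 (adjusted p = 0.029). The glycolysis enzyme that was lower as counted was Pkm (630, 591 and 669 CPM in VF, -1.59, adjusted p = 0.049). Mthfd2 was higher in E12 than in VF by 2.04 (adjusted p = 0.0046), with 37.4, 35 and 35.2 CPM in VF, and Ccne1 by 3.10 (adjusted p = 0.011), with 27.1, 38 and 30.9 CPM. Ccng1 was higher by 1.46 (adjusted p = 0.018) and Slc16a10 by 1.15 (adjusted p = 0.038).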

How the data were processed

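Total RNA of sorted bone marrow MEP from 3 E12, 3 WT and 3 VF samples was made into SmartSeq 2 libraries, per the labels' protocols. The authors deposited 2 tables: whole-number counts for 17769 genes with the length of each gene in bases, and normalized log2 levels. Per the submitters' processing notes STAR, limma and the build GRCm38 (mm10) were used. Versions, the counting program, its handling of strand and of reads shared by gene copies, and the link from counts to log2 levels are not stated in the labels, notes or file header used, so overlapping, antisense and duplicated genes are uncertain. SmartSeq 2 reads carry no molecular identifiers, and counting intervals and floors (3 counts over a group, or an exact 95% interval) cover counting error only. The smallest p of an exact permutation test of 3 against 3 libraries is 0.1, so single genes rest on the fit across all genes.

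Counts were analysed with edgeR 4.0.16 (R 4.3.3, limma 3.58.1): filterByExpr kept 13608 genes, libraries were scaled by TMM, and 1 quasi-likelihood fit of all 9 libraries gave the contrasts, with Benjamini-Hochberg adjustment over all tested genes and a threshold of 0.05. CPM are TMM-scaled. The length offset is a lowess curve (span 0.3) per library of log2 CPM deviation on log2 gene length. It takes out any real relation with length as well. In simulated data with 200 changed genes among the 13608 and no length trend, 69% of the 8-fold changes and 1% of the 2-fold changes were found with 0 false calls. Small changes can thus be missed. The data gave many more calls (3251 higher and 2466 lower), which eases the adjusted threshold, so these shares do not carry over to them. The alternatives were other scalings and filters, a 1.5-fold minimum, DESeq2 1.42.0, limma-voom, the deposited log2 levels, E12 and WT alone, the offset, and libraries left out, also with the offset. In counts of DESeq2 calls, a gene to which it gave no adjusted p counts as not called. The offset without WT 50 was added after seeing the data.

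The 6 libraries, the 39 gene lists and the naming rule were chosen with earlier results of these data known. The rule took 8 genes of the largest change each way that reached 10 CPM in a group, the leading genes of each list, the most abundant genes that kept their call under the offset and without E12 5, the genes that also differed most from VF, and a fixed set of signalling, erythroid and glycolysis genes. Asns, Bcl2l1, Bnip3l, Cdkn1a, Erfe, Fcgr3, Flt3, Ftl1, Gata2, Hk1, Lmo2, Ly6a, Mdm2, Meis1, Pf4, Rhd, S100a8, Slc4a1, Alas2, Stat5a, Stat5b, Tyk2, Vwf, Ccne1 and Xist were named after their values were seen, as were members listed without values. A few genes that the rule takes are not reported here. Gene positions and promoter windows come from RefSeq tables of GRCm38.p6, to which 99.7% of the tested genes matched. E12 and WT share no replicate number. E12 and VF share the numbers 1 and 2, and their deviations correlated at 0.04 and 0.113, so the numbers were not used as pairs.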

Additional observations from a re-analysis of the deposited data

Results flagged for a closer look

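For 4 named genes the differences of E12 and of VF from WT were both called by edgeR, in opposite directions, and the direct contrast of E12 with VF was called too. Tmem56, a membrane protein of erythroid cells, differed by 5.50 (log2, adjusted p = 0.0017), being 1.79 above WT in E12 and at -3.71 in VF. The call of its rise in E12 was lost with the length offset (0.925, adjusted p = 0.068). Sfrp4, a secreted Wnt antagonist, differed by 7.29 (adjusted p = 0.0035), with 2.39 in E12 and -4.90 in VF. Cda, the cytidine deaminase of pyrimidine salvage, differed by 6.91 (adjusted p = 0.009), with 3.79 in E12 (5.79 with the length offset) and -3.12 in VF. Mthfd2 differed by 2.04 (adjusted p = 0.0046), with 0.93 and -1.11. In each of the 4 genes all 3 E12 libraries lay above all 3 VF libraries. E12 and VF also differ in weeks after tamoxifen, which cannot be told apart from the mutation here.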

How the results depend on the processing

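The count of genes higher in E12 than WT (3251) was 1643 with E12 and WT alone and 1664 with the length offset and without E12 5, and 2273 to 3935 with 1 library left out. The count lower (2466) was 1515 with the offset, 789 with the offset and without E12 5, 1291 with E12 and WT alone, and 1345 to 3436 with 1 library left out (1345 without E12 2, 1565 without E12 5). The 437 calls of E12 against VF became 150 with a 1.5-fold minimum, 1700 in DESeq2, 924 in limma-voom, 1784 on the deposited log2 levels, 1221 with the offset, 2559 without E12 5 and WT 50, 4097 with the offset and without WT 50, 6422 with these 2 groups alone, 5429 with the replicate block, and 19 (without VF 3) to 3301 (without WT 50) with 1 library left out. The numbers of the block pair no samples by the labels, and E12 and WT share no number.

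Of the named genes, 132 kept direction and call with the offset, 16 lost and 6 gained a call and 4 reversed, and without E12 5 the numbers were 142, 7, 3 and 6. With the offset and without E12 5 together they were 107, 37, 8 and 6. Tal1, Gfi1b, Epb41, Jak1, Slc2a3, Acsl4 and Srebf1 were among those that lost their call there. Where WT had no count, depth allows only a lower bound of the fold. The cause of the reversals was not tested. With the offset the differences were 0.0082 for Bax, 0.325 for Epor, -0.0765 for Jak2 and 0.792 for Nkg7. With the offset and without E12 5 they were 0.0742 for Bax, 0.208 for Epor, -0.0491 for Jak2, 1.11 for Nkg7, -0.8 for Hba-a1 and -0.808 for Hba-a2. With the offset and without WT 50 they were 0.00343 for Cd79b, 0.00669 for Epor, -0.332 for Jak2, 0.941 for Nkg7 and 0.165 for Psph. The deposited levels gave 0.209 for Epor and 0.299 for Gata1, and limma-voom -0.629 for Hba-a1 and -0.63 for Hba-a2. With 1 library left out the chains ranged from -2.52 to 1.68 (Hba-a1, Hba-a2), -1.09 to 4.02 (Hbb-b1, Hbb-bs) and -0.87 to 3.86 (Hbb-b2, Hbb-bt), lowest without E12 5 and highest without WT 50, and without E12 5 and WT 50 at -1.73, -0.23 and -0.0725, with Nkg7 at 0.118. The gene Ldha, at 0.01 as reported, was 0.433 with the offset (adjusted p = 0.024, called higher), -0.197 in DESeq2, -0.177 without E12 5 and WT 50, -0.183 with no filter, -0.201 with RLE factors, -0.0343 with upper-quartile factors, and -0.306 (without WT 52) to 0.0467 with 1 library left out, -0.0468 without E12 1 and -0.269 without WT 50 among them.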

Other observations

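The Xist and Y-linked RNAs divided libraries within 2 of the 3 genotypes. Xist was at 1140 CPM in E12 5 and at 553 and 238 CPM in VF 1 and VF 2, and at 0 to 3.32 CPM in the other 6 libraries. E12 5 held 0.695 CPM of Ddx3y, 0.651 CPM of Eif2s3y and 0.0434 CPM each of Kdm5d and Uty. VF 1 and VF 2 held both kinds of RNA, with 35.9 and 54.1 CPM of Ddx3y beside their Xist. Xist was called higher in E12 (8.91, adjusted p = 0.041, edgeR) and not without E12 5 (2.00, adjusted p = 0.42). The labels used here give no sex for a library.

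Genes that set E12 5 apart went beyond hemoglobin. It held 186 CPM of Alas2, 431 CPM of Slc4a1, 273 CPM of the neutrophil gene S100a8, 139 CPM of lactoferrin, Ltf, and 181 CPM of the pre-B gene Igll1, where E12 1 and E12 2 held at most 5.11, 6.29, 57.6, 34.3 and 12.8 CPM. WT 50 held 8580 CPM of the nuclear RNA Malat1, against 607 and 1140 CPM in the other WT libraries.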
